A study of Caenorhabditis elegans with 4 samples.

Results

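The genes described here are the 10 ionotropic glutamate receptor genes of *Caenorhabditis elegans* named glr-1 to glr-8, nmr-1 and nmr-2, out of 19973 protein-coding genes on the nuclear chromosomes. They form a family by name, chosen for description with earlier results of these data known, and every region whose summit fell in the gene body or within 5 kb of it was collected. The measurements are chromatin immunoprecipitation with sequencing (ChIP-seq) for CES-1, a zinc finger transcription factor of the Snail family, in whole worms at the L4 larval stage. All 4 libraries are biological replicates of strain OP174, of mixed sex, which carries the integrated transgene wgIs174, a ces-1 copy fused to TY1, EGFP and FLAG tags together with unc-119, on an unc-119(ed3) background. The labels describe the target as eGFP-tagged ces-1 but give the antibody as ces-1, so whether the tagged protein alone or also untagged CES-1 was precipitated is unsettled. Every library carries the transgene, and neither an untagged strain nor a second condition was analysed here, so the comparisons are between genes, between sites and between libraries. The labels state a fragment size range of 150 to 350 bp for replicates 1 and 2 and microtip sonication for replicates 3 and 4. Neurons are one tissue among several in a whole worm, so fewer cells with an occupied site and weaker occupancy per cell cannot be told apart.

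Each library was deposited as 30000 regions, with a signal value per region whose scale is not stated, so values are given as ranks within one list, where rank 1 is the strongest. A list from all 4 alignments, called the pooled list here, holds 25493 regions. From it, 1033 peaks passed the irreproducible discovery rate (IDR) step, which is meant to keep sites that rank alike between replicates. The IDR peaks of glr-5 and glr-4 had the same rank in both lists, 156 and 628. An IDR peak at these genes is therefore not read as evidence of agreement between replicates apart from the pooled rank. The number of reads behind a library is unknown. With 1 group, no test between conditions exists for these data.

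Ionotropic glutamate receptors are ligand-gated cation channels assembled from related subunits, and they carry fast excitatory transmission at synapses. In *C. elegans* the glr genes encode non-NMDA subunits and the nmr genes NMDA-type subunits. Many of them are expressed in the command interneurons that drive forward and backward locomotion, where the homeodomain factor UNC-42 is known to control several of their genes. CES-1 itself is known for its action in the cell death of neuron sisters in the pharynx.

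IDR peaks were found at glr-5 and glr-4 among the 10 genes. Of all protein-coding genes, 10.5% had an IDR peak in the same window, so a count of 2 lies near that background. In the narrower promoter window, which reached 1000 bp ahead of every annotated transcript start of a gene and 200 bp into it, 1 of the 10 genes had an IDR peak, glr-5, against 2.61% of all protein-coding genes. The windows of the receptor genes run from 13738 to 19223 bp, and their median of 14915.5 bp exceeds the 12027 bp of all protein-coding genes. Among the 3646 genes with a window in the same range of length, a comparison chosen later with the values known, 13.6% had an IDR peak in the window and 3.92% in the promoter window.

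The sequences under both IDR peaks are shown because they are the sites of the family that passed the IDR step. Each run gives 300 bases around the summit on the forward strand of the WBcel235 assembly (ce11), chrV:8716186-8716485 for glr-5 and chrII:7795293-7795592 for glr-4, read from the RefSeq genome. Capitals mark E-boxes, the CANNTG hexamers that basic helix-loop-helix and Snail-family factors can bind; the pattern is its own reverse complement, so a search of one strand covers both.
glr-5 peak: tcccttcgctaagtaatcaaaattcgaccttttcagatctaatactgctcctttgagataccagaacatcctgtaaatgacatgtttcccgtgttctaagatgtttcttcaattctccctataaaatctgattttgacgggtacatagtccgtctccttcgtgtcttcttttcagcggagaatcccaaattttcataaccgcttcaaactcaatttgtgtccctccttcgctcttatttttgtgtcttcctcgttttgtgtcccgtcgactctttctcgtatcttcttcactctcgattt
glr-4 peak: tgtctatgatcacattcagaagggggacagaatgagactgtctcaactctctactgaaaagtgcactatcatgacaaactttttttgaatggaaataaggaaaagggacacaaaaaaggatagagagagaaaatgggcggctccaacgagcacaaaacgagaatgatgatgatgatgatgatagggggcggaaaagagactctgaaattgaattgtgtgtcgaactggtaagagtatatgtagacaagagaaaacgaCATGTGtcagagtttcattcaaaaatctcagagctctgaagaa
The glr-5 run held no E-box, and the glr-4 run held 1, CATGTG, away from its summit.

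glr-5 encodes a non-NMDA receptor subunit and had the strongest region of the family. The gene (WBGene00001616) occupies 8716495 to 8720516 of chromosome V, forward strand. Its IDR peak, from 8716300 to 8716393, was intergenic, centred 159 bp ahead of the gene, and its rank in the pooled list was 156 with a signal of 95.7. At 94 bp it was narrower than the 344 bp that is the usual width in that list. Replicate 1 ranked the overlapping region 152 (signal 31.1), replicate 2 ranked it 243 (32.2) and replicate 4 ranked it 188 (23.9), while replicate 3 listed none. Replicates 1, 2 and 4 thus placed the site within their strongest regions, and replicate 3 did not list it among its 30000. The 3 library summits lay 156, 153 and 127 bp upstream of the 5′ end.

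Replicate 3 was the library that most often lacked an IDR peak. Of the 1007 nuclear IDR peaks, 126 (12.5%) overlapped no region of replicate 3, while the other libraries, in the order 1, 2 and 4, missed 13, 6 and 24. At glr-5 the strongest region of replicate 3 lay in the gene body, at rank 2827, and its next one, at rank 5272, was centred 725 bp ahead of the gene. That upstream region overlapped a weak pooled region, from 8715672 to 8716015 at pooled rank 17842, which replicate 2 also listed at rank 14423 and replicate 4 at rank 1058. In replicate 4 the glr-5 promoter therefore held both sites among the 2000 strongest regions. No other pooled region of glr-5 lay upstream, and the last of its 3 pooled regions, at rank 15189, lay beyond the 3′ end of the gene.

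glr-4, another non-NMDA subunit gene, had the other IDR peak and the longest gene body of the family. The gene (WBGene00001615) occupies 7785100 to 7794322 of chromosome II, reverse strand. The peak, from 7795271 to 7795614 with a pooled rank of 628 and a signal of 54.6, was centred 1121 bp ahead of the gene, just beyond the promoter window. The overlapping regions ranked 6808, 876, 460 and 443 in replicates 1 to 4, so every library listed the site and replicate 1 listed it far lower than the rest. The summit fell in an exon of C06A8.17, a short non-coding gene of the same interval. The nearest protein-coding 5′ end was that of glr-4.

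A second site lay closer to glr-4. The pooled region from 7794329 to 7794672, centred 179 bp ahead of the gene, ranked 2335. Replicates 1 to 3 listed it at ranks 22895, 1078 and 2605, and replicate 4 had no overlapping region. Its summit fell in exons of the non-coding genes C06A8.14 and C06A8.15, which lie on opposite strands, so the site cannot be assigned to one of the 3 genes. In replicate 1 the strongest region of the glr-4 window was at neither site but at 2871 bp upstream, at rank 2309. Of the 9 pooled regions of glr-4, 6 lay outside the gene on either side and 3 in its body, at ranks 13351, 16751 and 17665.

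**Figure D1:**
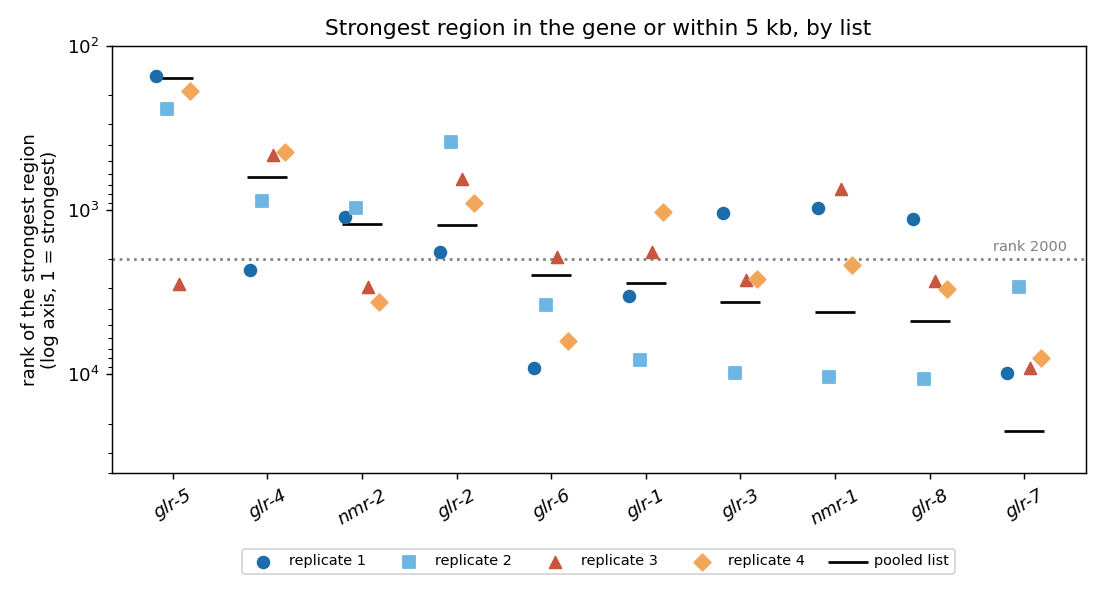
Rank of the strongest region in each receptor gene or within 5 kb, on a log axis with the strongest at the top; points are the 4 libraries, horizontal dashes are the pooled list, and the dotted line marks rank 2000. The genes are ordered by pooled rank, from glr-5 at 156 to glr-7 at 22034, and most genes spread over a wide range of ranks between libraries.

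glr-1 and glr-2 encode AMPA-type subunits that form channels together in the command interneurons, and glr-1 is known for its part in the response to nose touch. glr-2 was the only one of the 10 genes with at least 1 of the 2000 strongest regions in all 4 libraries, where 5.07% of all protein-coding genes and 7.13% of those with a window of like length had this. The strongest ranks were 1798, 387, 647 and 903 in replicates 1 to 4. They did not come from one site. In replicates 2 and 3 the strongest region lay at the 5′ end, in replicate 1 in a coding exon of the gene, with a summit 1966 bp downstream of the 5′ end, and in replicate 4 in a coding exon of the neighbour ogt-1, with a summit 4500 bp upstream.

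The gene glr-2 (WBGene00001613) occupies 7138640 to 7144959 of chromosome III, reverse strand. Its strongest pooled region, from 7144777 to 7145120 at rank 1241, had its summit in the 5′ UTR exon, 10 bp from the 5′ end. The 4 libraries listed an overlapping region at ranks 1859, 387, 647 and 13359, so the site was present in each and weak in replicate 4. With 10 pooled regions, glr-2 had the most of the family.

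The next pooled region of glr-2, at rank 1642, lay at a spliced leader RNA gene inside the receptor gene. Spliced leader RNAs are small nuclear RNAs whose leader is joined to the 5′ ends of other transcripts, and their genes are repeated in near-identical copies. glr-2 holds 3 of them in its body, sls-2.5, sls-2.16 and sls-2.18. The pooled summit lay 5 bp upstream of the 5′ end of sls-2.16, which runs from 7141391 to 7141499 on the forward strand, and the libraries listed an overlapping region at ranks 2084, 23897, 9151 and 1067. At sls-2.18, from 7142291 to 7142397 on the forward strand, a pooled region at rank 9016 had its summit in the RNA exon and overlapped regions at rank 10509 in replicate 1 and 1779 in replicate 4. The pooled summit nearest to the 5′ end of sls-2.5 was 833 bp away. Reads from near-identical copies can be placed at any of them, so the signal at these RNA genes is uncertain as to copy.

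glr-1 (WBGene00001612), on chromosome III from 8584163 to 8588642 on the reverse strand, had no IDR peak. Its strongest pooled region, from 8588789 to 8589132 at rank 2799, was centred 319 bp ahead of the gene, in an exon of the non-coding gene C06E1.12. The libraries listed an overlapping region at ranks 3349, 26248, 10570 and 1026 in replicates 1 to 4, with library summits from 136 to 467 bp upstream. For the summit of replicate 4 the 5′ end of the neighbouring gene fip-3 was nearer, at 379 bp. Every library had a region at the glr-1 promoter, and their ranks spanned most of a list. In replicate 3 a stronger region, at rank 1813, lay 1050 bp upstream of the neighbouring gene doxa-1.

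The 101 bases around the summits at the 5′ ends of glr-1 and glr-2, around the second glr-4 site and around the sls-2.16 site follow, since the E-box counts below rest on windows of this kind. They are forward-strand WBcel235 sequences at chrIII:8588911-8589011, chrIII:7144899-7144999, chrII:7794451-7794551 and chrIII:7141336-7141436, with E-boxes in capitals.
glr-1 upstream site: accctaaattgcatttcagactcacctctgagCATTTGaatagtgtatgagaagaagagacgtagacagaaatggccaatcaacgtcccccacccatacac
glr-2 5′ end site: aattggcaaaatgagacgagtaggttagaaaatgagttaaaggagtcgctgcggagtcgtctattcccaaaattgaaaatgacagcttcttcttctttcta
glr-4 proximal site: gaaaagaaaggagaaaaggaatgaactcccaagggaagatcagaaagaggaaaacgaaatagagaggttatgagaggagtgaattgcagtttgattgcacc
sls-2.16 site in glr-2: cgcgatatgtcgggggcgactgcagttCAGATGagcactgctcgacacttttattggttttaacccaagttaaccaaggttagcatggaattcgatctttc
CATTTG occurs once in the glr-1 window and CAGATG once in the sls-2.16 window, and the other windows have no E-box.

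glr-6, a non-NMDA subunit gene, shares its upstream interval with asg-2, which encodes a subunit of the mitochondrial ATP synthase. glr-6 (WBGene00001617) occupies 6836210 to 6840720 of chromosome X, reverse strand, and asg-2 starts at 6841258 on the forward strand. The strongest pooled region, from 6840997 to 6841340 at rank 2485, was centred 449 bp ahead of glr-6 and 89 bp from the 5′ end of asg-2. It was listed in all 4 libraries, at ranks 9139, 3812, 1933 and 6317. The summits of all 4 libraries lay nearer to asg-2 than to glr-6, at 183, 196, 45 and 7 bp from its 5′ end. The site is thus found in every library, and its position alone does not assign it to the receptor gene.

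nmr-1 and nmr-2 encode the NMDA-type subunits, which act in the command interneurons and are known for roles in foraging and memory. Their strongest pooled regions lay away from the receptor genes. For nmr-2 (WBGene00003775, chromosome V, 15006341 to 15011660, reverse strand) the strongest pooled region, from 15002168 to 15002511 at rank 1211, was centred 117 bp ahead of fib-1, which encodes the nucleolar protein fibrillarin. Its ranks were 1103, 967 and 3626 in replicates 1, 2 and 4, and replicate 3 did not list it; the strongest region of replicate 3 lay in a coding exon of nmr-2, at rank 2939. At the 5′ end of nmr-2 itself a pooled region from 15011585 to 15011928, with its summit 97 bp upstream, ranked 5667. Only replicate 2 listed an overlapping region there, at rank 7683.

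The sequences at these 5′ ends are given for the contrast between the receptor gene and its neighbour, as 101 forward-strand bases at chrX:6841119-6841219, chrV:15002290-15002390 and chrV:15011707-15011807, with E-boxes in capitals.
glr-6 and asg-2 site: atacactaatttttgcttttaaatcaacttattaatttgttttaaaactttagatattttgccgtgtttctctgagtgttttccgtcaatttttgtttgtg
fib-1 site near nmr-2: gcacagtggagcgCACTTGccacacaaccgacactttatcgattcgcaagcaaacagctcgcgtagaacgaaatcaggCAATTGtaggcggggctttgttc
nmr-2 5′ end site: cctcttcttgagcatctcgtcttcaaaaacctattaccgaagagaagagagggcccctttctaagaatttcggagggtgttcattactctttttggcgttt
The fib-1 window held the E-boxes CACTTG and CAATTG and had a GC content of 52.5%, against 25.7% at the glr-6 and asg-2 site and 43.6% at the 5′ end of nmr-2.

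For nmr-1 (WBGene00003774, chromosome II, 5440238 to 5446606, reverse strand) the strongest pooled region, from 5449395 to 5449738 at rank 4193, lay 2961 bp upstream. The neighbour cex-1, whose product is a calcium-binding protein, ends before it, and the cex-1 5′ end was the nearest one, at 1886 bp. Replicate 1 listed the site at rank 968 and replicate 4 at rank 10934, and replicates 2 and 3 did not list it. Close to the 5′ end, with its summit 234 bp upstream, a weak pooled region at rank 21545 overlapped regions of replicates 2, 3 and 4 at ranks 26479, 10590 and 11549. The promoter of nmr-1 thus carried weak regions in 3 libraries.

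Like nmr-1, whose promoter region ranked 21545, glr-3, glr-7 and glr-8 had no pooled region stronger than rank 17825 in their promoter windows. glr-3 encodes a kainate-type subunit known to act as a cold receptor in a sensory neuron. The gene (WBGene00001614) occupies 7117808 to 7121545 of chromosome I, forward strand. The strongest pooled region in its window, at rank 3625, had its summit in an intron of unc-14, a gene for axon growth and transport, 2189 bp from the unc-14 5′ end, and overlapped regions at ranks 1038, 15455, 2664 and 11947. Upstream of glr-3 itself, 536 bp from its 5′ end, the pooled region ranked 17825 and overlapped regions at rank 25510 in replicate 1 and 29045 in replicate 2. Both lay near the end of their lists. A stronger region was listed by replicate 4 alone, at rank 5959, in a coding exon 332 bp inside the gene, and it was not among the pooled regions.

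glr-7 and glr-8 are more distant members of the family, reported in pharyngeal neurons. glr-7 (WBGene00001618, chromosome X, 2413909 to 2419877, reverse strand) was the weakest of the 10 genes in the pooled list and in replicates 1, 3 and 4, while in replicate 2 it ranked ahead of glr-1, glr-3, glr-6, glr-8 and nmr-1. Its strongest pooled region ranked 22034, in an intron of gcy-31 at 4926 bp upstream. It was the 1 member without a pooled region in its promoter window, a window in which 9 of the 10 genes had one, against 36.7% of all protein-coding genes and 47.1% of those with a window of like length. The strongest regions of glr-7 in the libraries ranked 9768, 2928, 9170 and 7944, and of these only the one of replicate 2 overlapped a pooled region. Those of replicates 1 and 2 lay downstream, near hlh-15, and those of replicates 3 and 4 in introns of glr-7, the former in the promoter window of an inner annotated transcript start.

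glr-8 (WBGene00001619, chromosome X, 6505980 to 6509957, forward strand) had its strongest pooled region in a coding exon towards its 3′ end, from 6509306 to 6509649 at rank 4742. It overlapped regions of replicates 1, 2 and 4 at ranks 1126, 10666 and 18661. A pooled region in the 5′ UTR exon, 184 bp from the 5′ end, ranked 19509 and was listed at ranks 25427, 19629 and 12041 in replicates 1, 2 and 4. Replicate 1 also had a region at rank 4468 centred 922 bp ahead of the gene, in a 5′ UTR exon of cdf-1. An intronic region of glr-8 at pooled rank 20472 held the 1 CAGGTG found within 50 bp of a pooled summit of the family. CAGGTG is the E-box typical of Snail-family proteins.

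**Figure D2:**
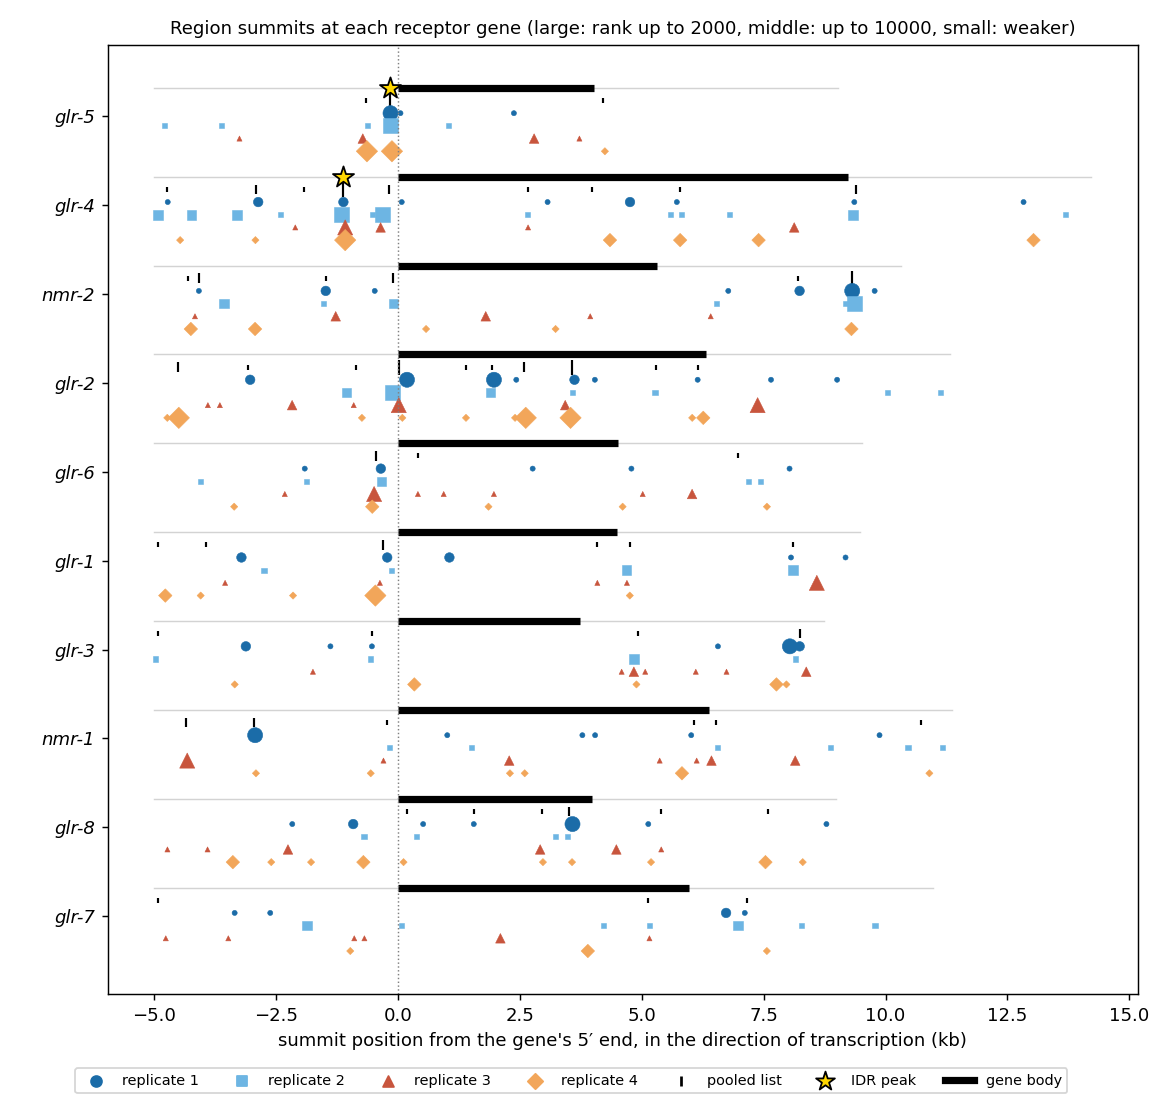
Summits of all regions at the 10 genes, placed by distance in kb from the gene's 5′ end in the direction of transcription; under each gene, ticks are the pooled list, the rows of points are replicates 1 to 4, larger marks are stronger regions and stars are IDR peaks. Large points of several libraries stack at the upstream sites of glr-5 and glr-4, at the 5′ end of glr-2 and at the 3′ side of nmr-2, where fib-1 begins, and are scattered elsewhere.

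All 10 genes had a pooled region in their window, against 87.5% of all protein-coding genes, and all 10 had a region in each of the 4 libraries, against 83.3%. Both shares were higher, 93% and 91.4%, among genes with windows in the same range, so a region somewhere in the window does not set these genes apart. In at least 1 library, 9 of the 10 genes had one of the 2000 strongest regions, against 41.4% of all protein-coding genes and 51.3% of those of like window length. The exception was glr-7. The 25 such regions divided as 7, 5, 6 and 7 over replicates 1 to 4.

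Position qualified these counts. Of those 25 strong regions, 10 lay outside the receptor gene and nearer to the 5′ end of another protein-coding gene, 6 lay in the gene body and 9 lay outside it with the receptor gene's own 5′ end nearest. Regions outside the gene body and nearer to another gene's 5′ end were then left out. By this rule glr-2, glr-4, glr-5 and glr-8, 4 of the 10, kept one of the 2000 strongest regions. The share was 20.2% of all protein-coding genes and 29.7% of those with a window of like length. The glr-8 region counted because it lay in the gene body, although the 5′ end of ttr-36, at 1370 bp, was nearer than its own, at 3577 bp. Among the 56 pooled regions of the family, 24 lay upstream, 18 in the gene body and 14 downstream, and 25 were outside the body and nearer to another gene's 5′ end. The promoter windows held 11 of the 56.

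Averaged over libraries, the windows held 3.90 ± 0.075 regions per 10 kb (SD, n = 4), where the nuclear genome held 2.99. Of the 2000 strongest regions they held 4.06 ± 0.622 per 100 kb (SD, n = 4), against 1.97 over the genome, and the value was above that of the genome in 4 of 4 libraries. Both densities are set against the whole genome, not against the windows of other genes. The 4 libraries share the same windows, with 5 to 7 such regions each, and the SD does not measure the spread between sets of genes. The rank of a gene's strongest region, as a percentile of its list with low values strong, had a median over the 10 genes of 4.87, 11.2, 7.66 and 8.01 in replicates 1 to 4, a mean of 7.94 ± 2.60 (SD, n = 4). Over all protein-coding genes with a region the mean was 20.4 ± 0.886, and over those with a window in the same range of length 15.7 ± 0.602. Within 2 kb of the gene the means of all these sets were weaker, and the 10 genes varied more between libraries. The mean was 16.1 ± 5.56 (SD, n = 4) for the 10 genes, against 29.5 ± 0.856 over all genes with a region and 23.3 ± 0.874 over those of like length. In replicates 1 to 4 the 2 kb value of the 10 genes was 22.0, 19.2, 9.61 and 13.5, so in replicate 1 it lay close to the 22.6 of the genes of like length. Within 5 kb, the 2 pairs of libraries that the labels separate gave a mean of 8.05 for replicates 1 and 2 and 7.84 for replicates 3 and 4. Within 2 kb the pairs differed, and both values of replicates 1 and 2 were weaker than both of replicates 3 and 4. Genes share windows and regions with their neighbours, so these are descriptions without a test.

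The order of the 10 genes by pooled rank was glr-5 (156), glr-4 (628), nmr-2 (1211), glr-2 (1241), glr-6 (2485), glr-1 (2799), glr-3 (3625), nmr-1 (4193), glr-8 (4742) and glr-7 (22034). Over the 4 libraries, the ranges of the strongest ranks overlapped for every neighbouring pair in this order except glr-2 and glr-6. For glr-2 the ranks ran from 387 to 1798 and for glr-6 from 1933 to 9139. For glr-5 they ran from 152 to 2827 and for glr-4 from 443 to 2309, so the lead of glr-5 over glr-4 does not hold in every library. In replicate 3, 7 of the other genes ranked above glr-5, all but nmr-2 and glr-7.

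Few sites were shared by all libraries. Of the 56 pooled regions at the receptor genes, 6 (10.7%) overlapped a region in each of the 4 libraries, 18 in 3, 15 in 2, 16 in 1 and 1 in none. Of all nuclear pooled regions, 11.8% overlapped a region in all 4 libraries, and of the nuclear IDR peaks 83.8%. The 6 were the strongest regions of glr-1, glr-2, glr-3, glr-4 and glr-6 and the sls-2.16 site in glr-2. This rests on an overlap of at least 1 bp. With summits within 150 bp instead, the strongest regions of glr-1, glr-2 and glr-3 were matched in 3 libraries, and those of glr-4 and glr-6 still in 4. Seen from the libraries, 36.3% ± 4.37 (SD, n = 4) of their regions at the receptor genes overlapped no region of another library, and 9.16% ± 0.786 (SD, n = 4) overlapped a region in all 3 others. For all nuclear regions the values were 39.6% ± 2.84 and 9.65% ± 0.333 (SD, n = 4), and both gaps were smaller than the SD of the receptor genes, though larger than that of all nuclear regions. Overlap with 2 other libraries was more frequent at the receptor genes, at 24.2% ± 2.17 against 17.4% ± 1.65 (SD, n = 4), a difference larger than that spread; both sets come from the same libraries, and no test was made.

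**Figure D3:**
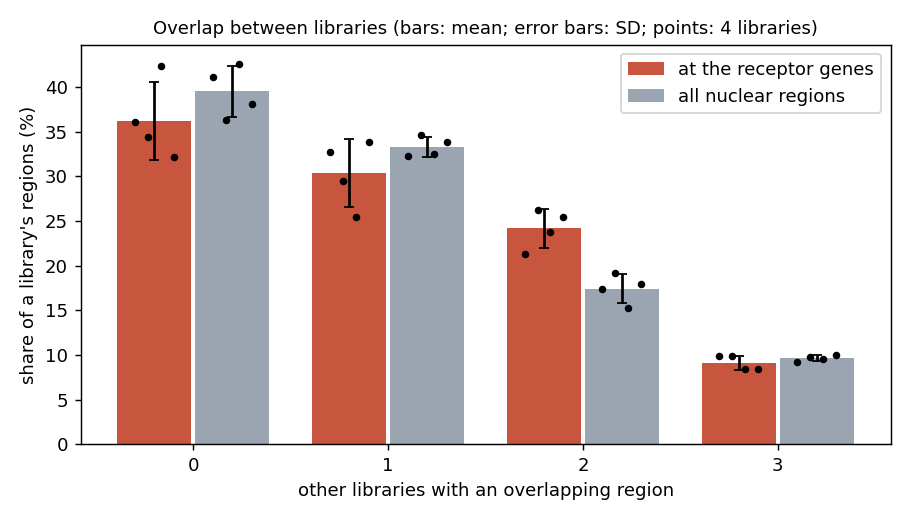
Share of a library's regions, in percent, by the number of other libraries with an overlapping region, at the receptor genes and over the nuclear genome; bars are means over the 4 libraries, error bars the SD, and points the libraries. At the receptor genes 24.2% of regions were shared with 2 other libraries, against 17.4% over the genome, and the gaps between the other means were smaller than the SD of the receptor genes.

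E-boxes within 50 bp of the summit were present at 19 of the 56 pooled regions (33.9%), against 30.2% of all 25466 nuclear pooled regions. CAGGTG, searched on both strands, was present at 1 of the 56 (1.79%), against 2.14%. The summit windows of both IDR peaks, at glr-5 and glr-4, held no CANNTG. The GC content of the windows had a median of 35.1%, against 33.7% over the pooled list. Of the 56 summits, 18 were intergenic, 13 fell in a coding exon of any gene and 5 in an exon of a non-coding or small nuclear RNA gene.

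Other genes of glutamate signalling were set beside the receptors, with the same window. Of 32 genes in 6 lists, 12 had an IDR peak and 5 had one in the promoter window, where 10.5% and 2.61% of all protein-coding genes did. These lists include long genes, and several of the peaks lie far from a 5′ end. The auxiliary subunits, membrane proteins that assemble with the GLR-1 channel, had 2 of 4. The peak of sol-1 ranked 98 in the pooled list, in a coding exon 3681 bp downstream of the 5′ end, and that of sol-2 ranked 137, 101 bp upstream, in a coding exon of K05C4.10. At sol-1 the ranks in replicates 1 to 4 were 143, 59, 626 and 84, and at sol-2 they were 99, 178, 1523 and 680, so both genes had strong regions in every library. The stargazin-related genes stg-1 (pooled rank 1195) and stg-2 (1641) had no IDR peak.

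The glutamate-gated chloride channels, which carry inhibitory responses to glutamate, had 4 of 6 genes with an IDR peak. They were avr-14 (pooled rank 418), glc-3 (834), glc-2 (887) and glc-4 (929). The avr-14 peak lay in an intron, and the glc-2 peak, 649 bp upstream of the gene in an intron of F25F8.1, was the 1 in a promoter window. Of the metabotropic receptors, which couple to G proteins, mgl-2 (516) had IDR peaks, and mgl-1 (1266) and mgl-3 (11978) had none. None of 7 genes of glutamate transport had one, and their strongest pooled regions were at the vesicular transporter gene eat-4 (1605), where the summit was 132 bp from the 5′ end of ZK512.11, then at glt-3 (4243), glt-4 (4487) and glt-6 (4551).

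Of the genes for receptor trafficking and turnover, 3 of 8 had an IDR peak. They were lin-10 (346), a PDZ protein gene needed to localise GLR-1, lin-23 (556), which encodes an F-box protein, and unc-43 (857), the gene of the calcium- and calmodulin-dependent kinase CaMKII. unc-11, a gene of clathrin-mediated endocytosis, followed at 1340 without an IDR peak. Of the 4 transcription factors of command interneurons, unc-42 (rank 4, with 5 IDR peaks) and fax-1 (568, with 2) had IDR peaks, and cfi-1 (3596) and unc-3 (6528) had none. The ranks at unc-42 were 9, 4, 6 and 8 over the 4 libraries, well above any region of a receptor gene. The median pooled rank of the strongest region was 2642 for the 10 receptor genes, 1605 for the 31 of the 32 other genes with a region, 4810 for genes with a window as long as those of the receptors and 6224 for all protein-coding genes with one.

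**Figure D4:**
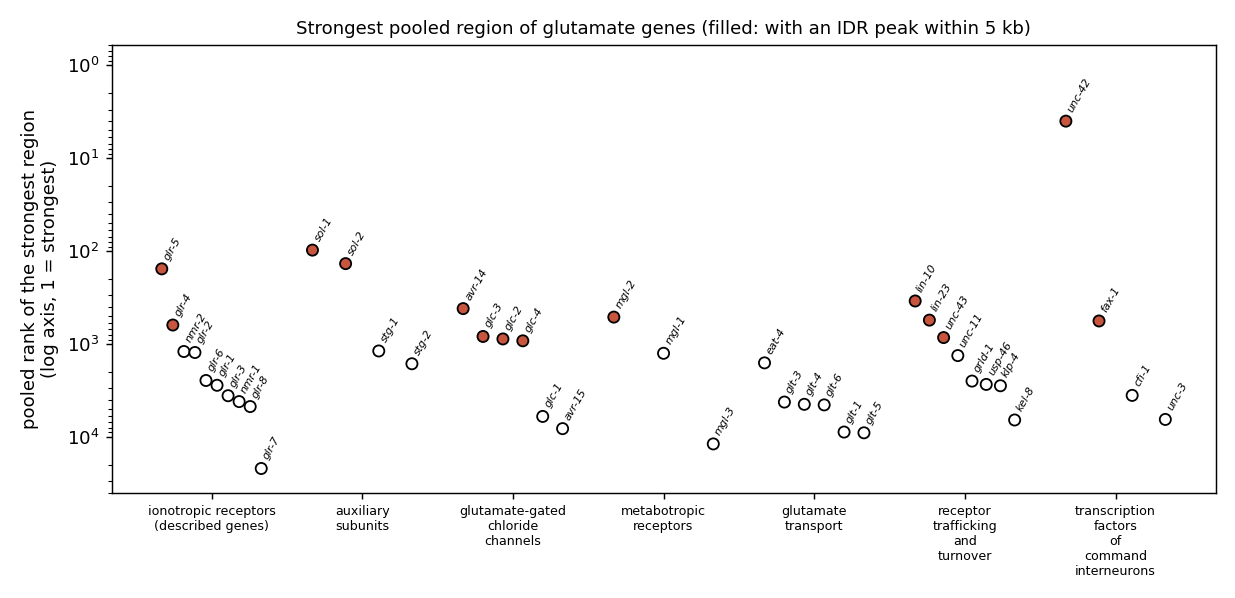
Pooled rank of the strongest region in the gene or within 5 kb, on a log axis with the strongest at the top, for the receptor genes and 6 lists of other glutamate genes; filled points have an IDR peak in the window. unc-42 at rank 4 stands above all others, and the receptor genes run from 156 for glr-5 to 22034 for glr-7.

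The genes whose strongest library ranks were most like those of glr-5 were found by Euclidean distance of log10 ranks over the 4 libraries among 16630 genes with a region in each. ZC196.8, with a distance of 0, and ZC178.2 (0.271) are neighbours whose windows include the glr-5 peak, so they share its regions. R04E5.7 on chromosome X (0.276) was next, with ranks of 197, 433, 2708 and 184 in replicates 1 to 4. Its weaker rank in replicate 3 follows from the choice by these same ranks.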

How the data were processed

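Regions were measured by ChIP-seq in 4 biological replicates of 1 strain, numbered as in the labels. The authors deposited regions in the 10-column narrowPeak layout with a signal score per region of unstated scale, and per the file records each ce11 list came from its alignment and a control, the pooled list from all 4 alignments and the IDR list from the pooled and single lists. The sources used here do not name an aligner, a peak caller, call settings or an IDR cut-off. Read depth is unknown, so no counting interval was computed. The control, the other columns and the ce10 lists were not used here.

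Genes came from Ensembl release 115 on WBcel235, the same assembly as ce11, and all regions on the nuclear chromosomes ended within their lengths. Summits were start plus offset, 1-based. Regions were ranked by signal within a list; libraries were compared by overlap of at least 1 bp. Positions were annotated by transcript models of all gene types other than piRNA genes. E-boxes were searched in 101 bp windows of the RefSeq genome. Python 3.11.15, numpy 2.4.6, pandas 2.3.3 and matplotlib 3.10.9 were used, and window and motif steps were checked on simulated data. No test between conditions was possible with 1 group.

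The receptor genes, the 6 lists, and the rule for the genes named (all 10 receptor genes, up to 4 of each list by pooled rank, the neighbours nearest to or overlapping a described region, and the 3 genes most like the strongest one) were chosen with earlier results of these data known. The genes with windows of like length were chosen as a comparison after the data were seen. Protein sequences were not analysed here. Alternatives were the window, the rank limits, the overlap rule and leaving out each replicate.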

Additional observations from a re-analysis of the deposited data

Results flagged for a closer look

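At glr-5, replicate 3 stood apart from the other libraries: its strongest region lay at percentile 9.42 of its list, against 0.507, 0.81 and 0.627 in replicates 1, 2 and 4. This library lists no region at the glr-5 promoter peak, and it lacks an overlapping region at 12.5% of all nuclear IDR peaks; the part of that general gap in the glr-5 value was not tested. At nmr-1, replicate 2 was the weakest, with its strongest region at percentile 34.6, against 3.23, 2.48 and 7.22 in replicates 1, 3 and 4. By number of regions in the window, replicate 2 had 4 at glr-1 where the others had 5, replicate 3 had 7 at glr-6 where the others had 5, and replicate 3 had 7 at nmr-1 where the others had 6. These counts differ by few regions. A library was singled out where its gap to the nearest other exceeded Dixon's critical share of the range of the 4 in 5 of 23 sets of values. For continuous values chance gives about 1 in 20 sets; where the other 3 libraries tie, as in the 3 counts of regions, a difference of 1 region is enough, and that rate does not apply.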

How the results depend on the processing

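With 2 kb around the gene in place of 5 kb, the IDR peaks of glr-4 and glr-5 both remained. All 10 genes kept a pooled region (72% of all genes, 84.5% of like length) and a region in each library (53.9% and 73.8%). Of the 10, 6 had one of the 2000 strongest regions in at least 1 library (26.9% and 36.1%). The median percentile moved to 16.1 (29.5 over all genes with a region) and the density to 4.07 regions per 10 kb. With the gene body alone, 0 genes had an IDR peak (1.71% of all protein-coding genes, 3.13% of genes of like length). In the body, 4 had a region in all 4 libraries (15.7% and 38.8%) and 2 had one of the 2000 strongest regions (9.02% and 16.1%). In the promoter window, 1 gene had an IDR peak, 4 had a region in all 4 libraries (10.3% of all genes, 16.6% of like length) and 5 had one of the 2000 strongest (11.5% and 15.6%). Without regions outside the gene body and nearer another gene, 4 had one of the 2000 strongest (20.2% of all genes, 29.7% of like length). By the same rule, 7 had a region in all 4 libraries. No share over all genes is given for this rule, so the 7 is not read as a result about the receptor genes. Of the stronger IDR peaks (the list cut at its median rank), 1 gene, glr-5, had one (5.39% of all genes, 6.8% of like length). With only the 2000 strongest regions of each list, 4 genes had a pooled region (19% of all genes, 24.9% of like length). With the same limit, 1 had a region in all 4 libraries (5.07% and 7.13%). One of the 1000 strongest in at least 1 library was found at 5 genes (22.9% and 29.8%). E-boxes within 100 bp of the summit, a distance chosen after the data were seen, were present at 29 of the 56 regions (51.8%), against 51.5% of all nuclear pooled regions. Leaving out each replicate gave 10 to 10 genes with a region in all remaining libraries, 7 to 9 genes with one of the 2000 strongest, a median percentile of 6.85 to 8.97 and a density of 3.88 to 3.92. In all, 31 of the alternative values for these results stayed close to the reported ones and 14 moved. Those counted as close include the 6 genes with one of the 2000 strongest regions at 2 kb, against 9 in the main setting. They also include the 7 genes with a region in all 4 libraries without regions nearer another gene, against 10. The altered windows and rank limits count other positions or regions by construction. Of 30 alternatives on the number of libraries at each gene's strongest pooled region, 27 stayed close and 3, all at glr-7, moved. Those counted as close include falls from 4 to 3 libraries at glr-1, glr-2 and glr-3. No paired analysis was possible because the series has 1 group.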
